A study of Homo sapiens and Mus musculus with 33 samples.

Results

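The regions described here are the distal H3K18cr peaks of mouse colon epithelium that carry no H3K4me3 peak. They were taken from the list of H3K18cr peaks as those narrower than 5 kb, with every base at least 5 kb from all gene starts of the colon RNA-seq table and without overlap with any peak of the H3K4me3 list. Of 30338 H3K18cr peaks, 14615 met the rule (48.2%). Another 2161 peaks were equally narrow and distal but overlapped an H3K4me3 peak, 13263 lay under 5 kb from a gene start and 299 were distal and 5 kb or wider. The rule used position, overlap and width, and not the RNA or the sequence. The width of a peak went with its H3K18cr reads, as given below, so the amount of H3K18cr was not independent of the rule.

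H3K18cr was measured by ChIP-seq in 2 libraries with 2 input libraries, H3K4me3 in 3 libraries with 1 input library, and RNA in 3 libraries, all from colon epithelium of untreated C57BL/6 mice. Per the study's methods the mice were male and the epithelium was freed with EDTA, and 3 colons were combined for the H3K18cr ChIP, while a legend names cells of 2 mice. The labels do not say whether the 2 libraries came from separate mice, so the p-values below measure the spread between these libraries, which may be technical. No treatment, genotype or other condition was compared within the colon data, and the age of these mice is not given in the sources used here.

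Crotonylation adds a crotonyl group to a lysine of a histone, much as acetylation adds an acetyl group, and it can be written by the same enzymes, such as p300, and removed by class I histone deacetylases. H3K4me3 marks the start sites of active genes, and a region that carries an acyl mark away from gene starts and without H3K4me3 is a typical place to find an enhancer, a stretch of DNA that raises the transcription of a gene at a distance. The epithelium of the colon consists of absorptive colonocytes, mucus-secreting goblet cells, enteroendocrine cells and the stem and dividing cells of the crypts, and is kept by transcription factors of the CDX, HNF4, KLF and GATA families among others.

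The distal peaks without H3K4me3 were short, with a median width of 1350 bp (range 300 to 4950 bp, on a grid of 150 bp), and covered 22.5 Mb in sum. The centres of 7 of them are printed here. They are the 5 with the most ChIP reads per kb among the peaks called higher than input, then the first 2 by enrichment over input. These were chosen for extreme values, so they need not look like the rest. The peaks in Degs2 and nearest to Kif2c, Hfe2 and AC134601.2 had an annotated transcript start within 1 kb, where 9.98% of all these peaks did. Each line is 300 bases of the GRCm38 reference genome (RefSeq), top strand, 5′ to 3′, in lower case, with capitals where 1 of 13 motifs of epithelial or widespread transcription factors matched on either strand. With N for any base, the letters searched were TGANTCA for AP-1, TTTATNG for CDX, CAAAGTCC for HNF4, GGGNGTG for KLF/SP, TGTTTAC for FOXA, ATCAAAG for TCF/LEF, CCGGAAG for ETS, GTTAATNAT for HNF1, CAGNNGGCG for the core of CTCF, CAGCTG for the E-box, TGACGTCA for CRE, AACCNGTT for GRHL and AGATAA for GATA. No motif contains another, but those of HNF4 and TCF/LEF share the letters CAAAG.
Intron of Degs2, chr12:108690601-108690900: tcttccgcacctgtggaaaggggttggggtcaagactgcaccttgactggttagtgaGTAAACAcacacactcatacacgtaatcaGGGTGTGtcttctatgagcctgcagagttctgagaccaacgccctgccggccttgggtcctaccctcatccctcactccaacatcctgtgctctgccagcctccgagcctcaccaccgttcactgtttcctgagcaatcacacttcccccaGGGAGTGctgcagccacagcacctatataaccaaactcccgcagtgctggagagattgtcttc
Intron of Ccdc12, chr9:110685076-110685375: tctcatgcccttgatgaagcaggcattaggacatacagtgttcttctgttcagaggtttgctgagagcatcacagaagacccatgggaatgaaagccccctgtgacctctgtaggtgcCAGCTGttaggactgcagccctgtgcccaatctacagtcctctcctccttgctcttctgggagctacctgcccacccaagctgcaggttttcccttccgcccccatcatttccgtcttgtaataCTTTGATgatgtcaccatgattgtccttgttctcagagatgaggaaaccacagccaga
Outside protein-coding genes, nearest to Tcp10c, chr17:13309051-13309350: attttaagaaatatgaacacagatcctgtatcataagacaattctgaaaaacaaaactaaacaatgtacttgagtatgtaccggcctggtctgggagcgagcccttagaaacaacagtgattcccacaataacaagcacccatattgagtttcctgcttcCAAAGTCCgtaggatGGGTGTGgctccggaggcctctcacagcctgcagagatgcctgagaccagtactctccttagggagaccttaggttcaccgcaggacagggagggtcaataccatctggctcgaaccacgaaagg
Outside protein-coding genes, nearest to 2610528J11Rik, chr4:118517176-118517475: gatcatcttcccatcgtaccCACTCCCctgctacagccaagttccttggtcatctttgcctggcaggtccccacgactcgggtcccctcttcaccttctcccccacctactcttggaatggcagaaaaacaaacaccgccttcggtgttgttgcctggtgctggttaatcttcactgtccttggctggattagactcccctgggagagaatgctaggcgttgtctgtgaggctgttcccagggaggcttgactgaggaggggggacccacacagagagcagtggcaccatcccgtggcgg
Outside protein-coding genes, nearest to Kif2c, chr4:117189601-117189900: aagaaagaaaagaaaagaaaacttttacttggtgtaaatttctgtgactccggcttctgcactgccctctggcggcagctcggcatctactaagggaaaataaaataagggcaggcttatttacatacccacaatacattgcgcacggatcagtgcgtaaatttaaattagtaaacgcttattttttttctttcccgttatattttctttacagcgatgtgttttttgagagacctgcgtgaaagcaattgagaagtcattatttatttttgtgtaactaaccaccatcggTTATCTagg
Outside protein-coding genes, nearest to Hfe2, chr3:96489301-96489600: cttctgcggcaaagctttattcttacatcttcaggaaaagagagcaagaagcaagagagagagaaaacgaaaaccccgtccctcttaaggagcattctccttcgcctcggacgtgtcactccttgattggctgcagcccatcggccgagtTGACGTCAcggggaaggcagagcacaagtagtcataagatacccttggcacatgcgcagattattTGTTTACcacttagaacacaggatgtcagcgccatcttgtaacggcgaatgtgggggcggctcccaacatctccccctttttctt
Outside protein-coding genes, nearest to AC134601.2, chr12:20196451-20196750: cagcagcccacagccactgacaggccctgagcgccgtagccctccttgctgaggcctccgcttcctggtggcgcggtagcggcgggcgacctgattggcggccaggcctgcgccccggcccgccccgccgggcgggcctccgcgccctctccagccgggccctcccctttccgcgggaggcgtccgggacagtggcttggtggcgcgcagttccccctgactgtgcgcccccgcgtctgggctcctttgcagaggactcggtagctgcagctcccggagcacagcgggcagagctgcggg

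The window in Degs2 held a FOXA and 2 KLF/SP matches, the window in Ccdc12 an E-box and a TCF/LEF match, and the window near Tcp10c an HNF4 and a KLF/SP match. The window near 2610528J11Rik held 1 KLF/SP match and the window near Kif2c 1 GATA match. The window near Hfe2 held a CRE and a FOXA match. The window near AC134601.2 held none of the 13 motifs and was 75% G and C, against a median of 47.7% over all the centre windows.

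**Figure D1:**
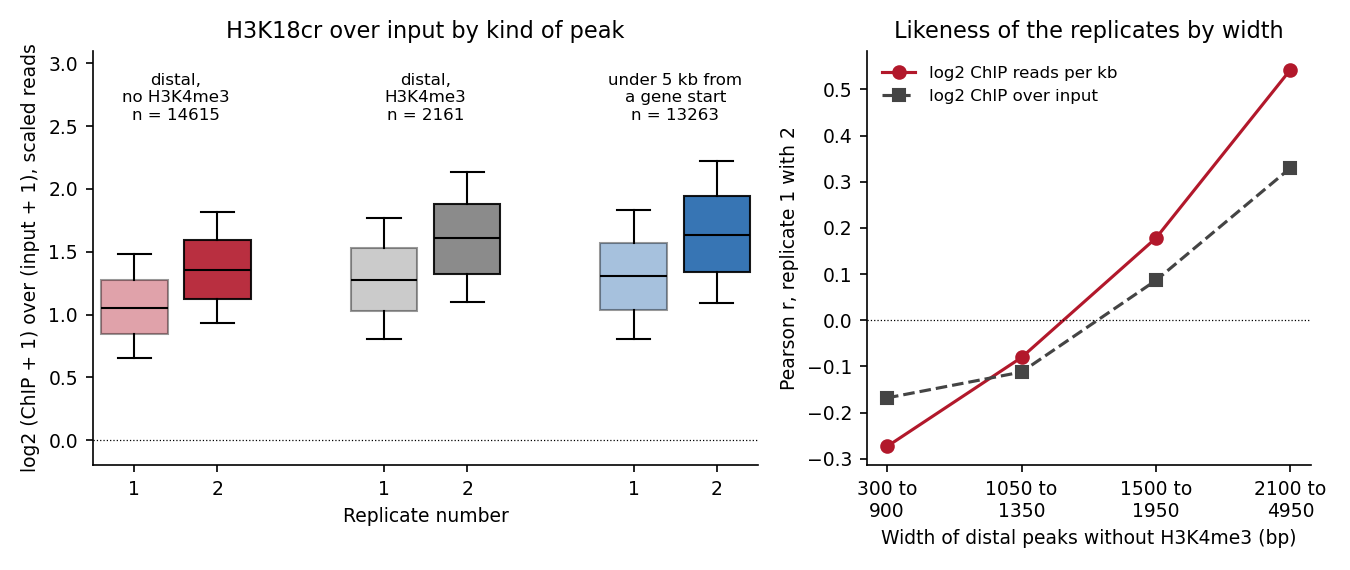
Left, log2 ratio of H3K18cr ChIP over input in scaled reads (pseudocount 1) for each replicate number in 3 kinds of peak (boxes, quartiles with the median; whiskers, 10th to 90th percentile). Right, Pearson correlation of replicate 1 with replicate 2 across the distal peaks without H3K4me3, in 4 classes of width. The distal peaks without H3K4me3 had the lowest medians, 1.06 and 1.35, and their replicates were most alike in the widest class, at r = 0.54 for ChIP reads per kb.

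H3K18cr at these peaks was about 2 to 3 times the input level and lower than at the other peaks of the list. The deposited values are scaled reads, the reads of a library multiplied by 1 factor that brings it to the largest library. The median peak without H3K4me3 held 46 and 67 reads in the 2 ChIP libraries and 36 and 29 reads in the 2 inputs, which corresponds to 56.5 and 84.9 scaled reads per kb in ChIP and 26.7 and 33.1 in input. Pairing the libraries by number, the median log2 ratio of ChIP over input was 1.06 (2.08-fold) in replicate 1 and 1.35 (2.56-fold) in replicate 2. It was 1.27 and 1.61 at distal peaks with H3K4me3 and 1.31 and 1.63 at peaks under 5 kb from a gene start. Both ChIP libraries stood above both inputs at 14438 of the 14615 peaks (98.8%), against 99.1% of all peaks in the list. ChIP fell below input at 10 of these peaks in replicate 1 and at 1 in replicate 2.

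Tested one by one with limma on the log2 scale, 12510 of the 14615 peaks (85.6%) were higher in ChIP than in input at an adjusted p under 0.05, and 0 were lower, where 90.1% of all 30338 peaks were called. The share was 94.5% at distal peaks with H3K4me3 and 94.1% at peaks under 5 kb from a gene start. The peaks were found from ChIP reads over input, so the direction was set by the peak calling, and the difference in shares held in this fit but not with a replicate block, where all 3 shares were 99.9% or higher. Over all peaks the ChIP libraries differed, at medians of 60.1 and 91.9 scaled reads per kb, against 26.7 and 33.4 in the inputs. Without a block, this offset enters the spread that the p-values rest on. The count changed strongly when 1 library was left out, which leaves 1 sample in a group. The median log2 ratio of these peaks was then 1.50 without ChIP library 1 and 0.92 without ChIP library 2. Without input library 1 it was 1.05 and without input library 2 it was 1.34. With edgeR on the recovered reads and the same factors, 13091 were called. The count also rested on scaling to whole libraries. With TMM scaling over the peaks, which sets the typical peak to no difference, the median of all peaks moved by -1.38 on the log2 scale, and 93 of these peaks were higher and 86 lower, with a median of -0.14, where 2047 and 23 of the 13263 peaks near gene starts were. The median of the distal peaks without H3K4me3 lay under that of all peaks by a similar amount with both scalings, at -0.11 on the log2 scale.

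The height of these peaks was little alike between the 2 ChIP libraries. Across the 14615 peaks the log2 ratio of ChIP over input of replicate 1 and that of replicate 2 correlated at r = -0.01 (Pearson), against 0.36 at the distal peaks with H3K4me3 and 0.44 at peaks near gene starts. The log2 ChIP reads per kb correlated at 0.05, against 0.57 and 0.66. These kinds of peak were not matched for width. Their median widths were 1350, 1650 and 1650 bp, and peaks near gene starts reached 22350 bp. The SD of the log2 ratio among these peaks was 0.34 and 0.36, and counting error alone gives a median SD of 0.32 in both replicates. The correlation followed the width of the peak. It was -0.27 for ChIP reads per kb in peaks of 300 to 900 bp, -0.08 at 1050 to 1350 bp, 0.18 at 1500 to 1950 bp and 0.54 at 2100 to 4950 bp. These points share a peak list made from the same reads, and the number of reads in a peak followed its width at r = 0.98 on log scales. Height was thus shared by the libraries in the widest class, whose log2 ratios correlated at 0.33, and little or not at all in the narrower peaks, and the source of the negative values was not tested.

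The 10 peaks with the largest log2 ratio, among those called with at least 50 scaled reads in each ChIP library, included 3 at genes of small nuclear RNAs, 2 at processed pseudogenes and 3 on the X chromosome. The first was chr3:96488851-96490050, outside protein-coding genes and overlapping the small nuclear RNA gene Gm22614 at its edge, 601 bp from an H3K4me3 peak. It held 66.8 and 101 scaled reads in ChIP and 10 and 7.63 in input, a log2 ratio of 3.09 (SE 0.50, limma adjusted p = 6.2e-06). The small nuclear RNA gene Gm23971 lay inside chr11:101645701-101646450, with 55.7 and 104 scaled reads in ChIP and 6 and 21.4 in input, and Gm25099 inside chr4:117189151-117190350, with 114 and 201 against 24 and 33.6. In each of the 3 peaks both ChIP libraries lay above both inputs. Another 2 of the 10 overlapped processed pseudogenes, chr12:20196001-20197200 (Gm48667) and chr8:19784551-19785450 (Gm10060). The 3 on X were chrX:167232451-167233350 near Tmsb4x, with 55.7 and 71.3 scaled reads in ChIP and 8 and 15.3 in input, chrX:36823501-36825450 in an intron of C330007P06Rik, with 126 and 195 against 22 and 42.7, and chrX:163501351-163502400 near Grpr, with 60.4 and 82.7 against 13 and 15.3. The peaks on X made up 141 of the 14615, and the input per kb was lower at them, with medians of 17.8 and 23.7 scaled reads against 26.7 and 33.1 over all these peaks, and its part in their ratios was not tested. The remaining 2 were chr5:121858201-121859250, with its midpoint in an exon of Cux2, with 85.9 and 110.2 against 16 and 24.4, and chr15:97942651-97947000 near Tmem106c, with 343 and 674 against 82 and 134. Small nuclear RNA genes and pseudogenes occur in near-identical copies and the authors kept reads by mapping quality, so values there are uncertain. Only 47 of the 14615 peaks (0.322%) lay within 1 kb of a small nuclear RNA gene, 44 of a miRNA gene, 25 of a small nucleolar RNA gene and 12 of a tRNA gene.

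Of the 5 peaks with the most ChIP reads per kb, 1 was chr4:117189151-117190350, described above. The leading one, chr12:108689401-108692100, lay in an intron of Degs2, which encodes a sphingolipid desaturase and hydroxylase, 10.2 kb from its start in the RNA-seq table, 83 bp from a further annotated start of a protein-coding transcript and 2.10 kb from an H3K4me3 peak. It held 272 and 454 scaled reads in ChIP against 76 and 80.9 in input, a log2 ratio of 2.15 (SE 0.54, limma adjusted p = 0.0020). An intronic peak of Ccdc12, chr9:110683051-110687400, held 382 and 783 against 136 and 145, and the peak chr17:13307551-13310850, 298 kb from the nearest H3K4me3 peak, held 307 and 571 against 99 and 162. The other was chr4:118515901-118518750 near 2610528J11Rik. At the other end, the lowest mean log2 ratio was 0.40 at chr8:20520301-20520600, 79.3% of which is soft-masked repeat, with 49.3 and 19.5 scaled reads in ChIP and 21 and 25.9 in input, so that the groups overlapped (adjusted p = 0.43). The next were chr4:56953051-56953650 near Tmem245 at 0.48 and chr5:136580851-136582500 near Cux1 at 0.56, neither of which passed the test (adjusted p = 0.32 and 0.25).

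At the limits of the rule, the peak nearest to a gene start inside the limit, chr19:11271151-11274150 near Ms4a1, was 5000 bp away and had log2 ratios of 0.79 and 1.15, and the peak just outside it, chr6:29512951-29513850 near Kcp, was 4999 bp away with 0.74 and 1.42. The widest peak kept was 4950 bp wide with log2 ratios of 1.37 and 1.71, and the narrowest distal peak left out for its width had 5100 bp with 0.71 and 1.00. The peak chr10:60814951-60817650 near Unc5b ended 1 bp from an H3K4me3 peak.

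By position the peaks were divided between introns and the space between genes. The midpoint lay in an intron of a protein-coding gene of GENCODE M21 in 7060 peaks (48.3%), in an exon in 396 (2.71%) and outside protein-coding genes in 7159 (49.0%). At distal peaks with H3K4me3, 17.2% of midpoints were exonic. The median distance to the nearest gene start was 29.8 kb and to the nearest H3K4me3 peak 22.7 kb. A gene start lay within 10 kb of 2163 peaks (14.8%) and over 100 kb away from 2112 (14.5%), and an H3K4me3 peak within 5 kb of 1881 (12.9%, 95% Wilson interval 12.3% to 13.4%). The gene starts of the rule were those of the RNA-seq table, 1 per gene. The annotation lists further transcripts, and a transcript start of any kind lay within 1 kb of 1458 peaks (9.98%), against 47.4% of the distal peaks with H3K4me3 and 83.5% of the peaks near gene starts. It was a start of a protein-coding gene at 725 of them and of a long noncoding RNA at 398. Requiring 5 kb from every annotated transcript start as well left 10702 peaks.

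Many of the peaks lay close to one another. Joined where gaps were at most 10 kb, they formed 8664 groups, of which 5566 held 1 peak and 361 held at least 5. The 361 groups held 2199 peaks. The largest held 16 peaks over 80550 bp (chr5:99324001-99404550), next to Rasgef1b, which encodes a guanine nucleotide exchange factor for Ras-family GTPases. A group of 13 peaks spanned chr1:133177351-133237500 at Plekha6 and Ppp1r15b, and a group of 11 spanned chr1:37499851-37528200 at Mgat4a, which encodes an enzyme that branches N-glycans.

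**Figure D2:**
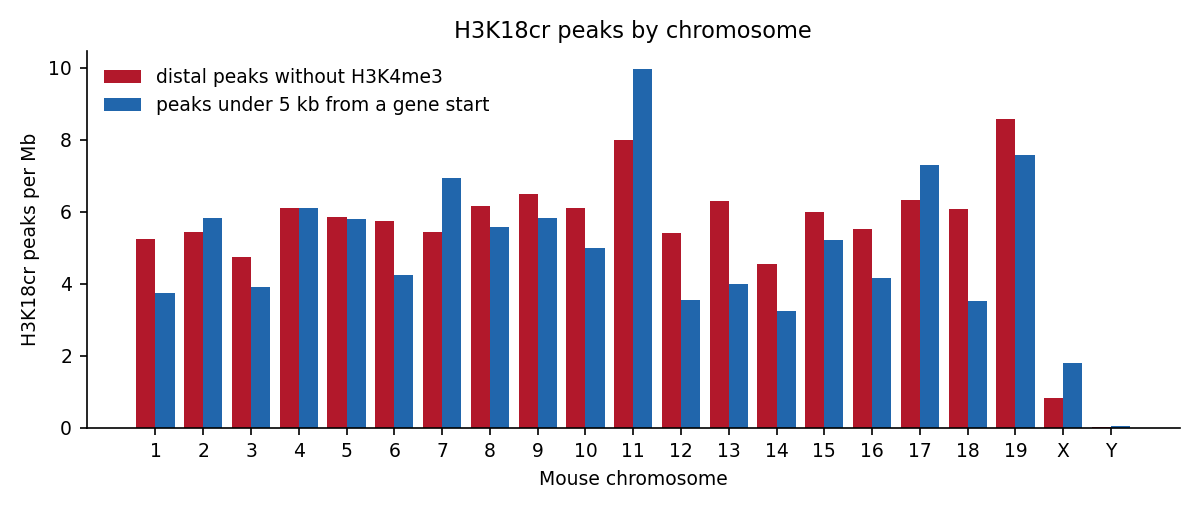
H3K18cr peaks per Mb of chromosome (bars) on the mouse chromosomes, for distal peaks without H3K4me3 and for peaks under 5 kb from a gene start. The distal peaks without H3K4me3 numbered 4.54 to 8.58 per Mb on the autosomes, 0.824 on X and 0.0327 on Y.

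The X chromosome held few of these peaks. There were 141 on X, 0.824 per Mb, against 4.54 per Mb on the sparsest autosome (chromosome 14) and 8.58 on the densest (chromosome 19). Peaks near gene starts were also fewer on X, 1.81 per Mb against 5.26 over the autosomes. The input reads per kb on X were fewer too, by the medians given above, and males carry a single X. The peaks on X were narrower, with a median width of 450 bp against 1350 bp on the autosomes. Within them, ChIP was 56.5 and 97.3 scaled reads per kb and the median log2 ratio 1.55 and 1.91. The part of the lower input coverage in the number of peaks called was not tested.

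**Figure D3:**
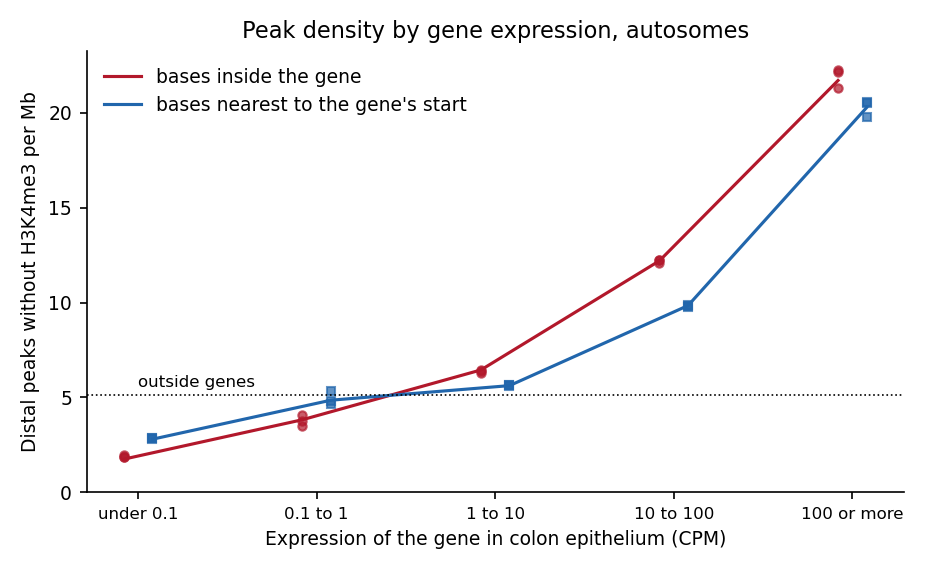
Distal H3K18cr peaks without H3K4me3 per Mb of autosomal DNA at least 5 kb from all gene starts, by the expression of the gene that holds the DNA (red) or whose start is nearest (blue), in CPM. Points are the 3 mice taken singly, lines the mean expression of the 3, and the dotted line DNA outside genes at 5.13 per Mb. Density rose at each step, from 1.75 to 21.7 per Mb inside genes.

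The number of these peaks followed the expression of the surrounding gene. To account for gene size, peaks were counted per Mb of autosomal gene body that lay at least 5 kb from every gene start, with genes binned by their RNA level in CPM, the counts of a gene relative to all counts of its library. Density was 1.75 peaks per Mb in genes under 0.1 CPM, 3.82 at 0.1 to 1 CPM, 6.45 at 1 to 10 CPM, 12.2 at 10 to 100 CPM and 21.7 at 100 CPM or more, and 5.13 per Mb outside genes. With the RNA of each mouse taken singly, the lowest bin gave 1.84 to 1.98 and the highest 21.3 to 22.2 per Mb, so the bins did not overlap between mice. The same order held when each base was assigned to the nearest gene start, at 2.80 per Mb in the lowest bin and 20.3 in the highest, a smaller contrast of 7.24-fold in place of 12.4-fold. On X, where there were 12 peaks in the highest bin, the densities inside genes were 0.258 and 7.08 per Mb. Genes are not independent replicates and there is 1 peak list, so these densities are a description without a test.

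The height of the peaks by the expression of the nearest gene is given as a description only, since all the peaks had passed 1 calling step. The median ChIP level was 57.1 and 84.9 scaled reads per kb where the nearest gene was under 0.1 CPM and 55.9 and 85.3 where it was at 100 CPM or more, and the median log2 ratios were 1.06 and 1.36 in the former and 1.05 and 1.35 in the latter. In the widest class, the only one in which the libraries shared height at r over 0.5 and which was looked at after the values were seen, the median ChIP levels were 57.4 and 90.4 in 584 peaks at the low end and 56.5 and 90.1 in 844 peaks at the high end. The share of all the peaks called higher than input was 85.5% and 84.7%. An AP-1 match was in 12.6% and 13.2% of the centre windows, and the GC content of the peaks was 46.5% and 46.4%.

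Of 25965 genes in the RNA-seq table, 5551 (21.4%) were the nearest gene of at least 1 of these peaks, 799 of at least 5 and 168 of at least 10. Counting each of the 5551 once, 66.6% had at least 1 CPM, where 49.0% of all genes had it, and their median level over the mean of the mice was 0.380 CPM per kb of gene length, against 0.0562 for all genes and 0.0198 for genes nearest to none of the peaks. Counted by peak, the nearest gene had at least 1 CPM for 72.4% of the peaks and a median level of 0.528, 0.524 and 0.508 CPM per kb in the 3 mice, 0.518 over their mean. That was not particular to these peaks: by peak it was 0.585 CPM per kb and 72.3% at distal peaks with H3K4me3 and 1.31 and 87.0% at peaks near gene starts. The length in the table is that of the gene body, introns included. Of the 7395 peaks inside a gene of the table, 6563 (88.7%) were in a gene of at least 1 CPM, and such genes held 59.1% of the gene-body DNA at least 5 kb from all gene starts.

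The gene with the most peaks nearest to its start was Klf6, a zinc finger transcription factor of the Krüppel-like family, with 42. Its relatives Klf3 (30) and Klf5 (26), the latter expressed in dividing crypt cells, were among the first 5 as well, with Magi1 (26), a scaffold protein of tight junctions, and Tbc1d1 (26), a Rab GTPase-activating protein. The DNA nearest to their starts and at least 5 kb from any start differed in size, at 878 kb for Klf6, 377 kb for Klf3, 515 kb for Klf5, 768 kb for Magi1 and 345 kb for Tbc1d1, which makes 47.8, 79.6, 50.5, 33.8 and 75.3 peaks per Mb. Another family member, Klf4 of differentiated cells, was nearest to 1 peak over 38.7 kb, which makes 25.8 per Mb. The peak with the most ChIP reads at Klf6, chr13:5842801-5846550, lay 14.9 kb upstream of its start and held 261 and 415 scaled reads in ChIP and 92 and 139 in input. The one at Klf3, chr5:64863751-64866750, lay 60.2 kb downstream of the start and held 239 and 336 against 83 and 96.2. The one at Klf5, chr14:99277501-99282300, 16.4 kb upstream, held 275 and 470 against 117 and 147. All 3 passed the test (limma adjusted p = 0.013, 0.0086 and 0.017), and in each the ChIP libraries lay above the inputs. RNA of Klf6 was 209.5, 160.1 and 119 CPM in the 3 mice and that of Klf5 809, 783 and 818 CPM. Genes that held many peaks in their body were Foxp1, a forkhead factor, with 27 peaks, Prkce, a protein kinase C, with 27, Magi1 with 24 and Fgfr2, a receptor of fibroblast growth factors, with 43 over the 2961 kb that the table gives it. The gene model Gm20388, which spans 4435 kb in the table, held 60.

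**Figure D4:**
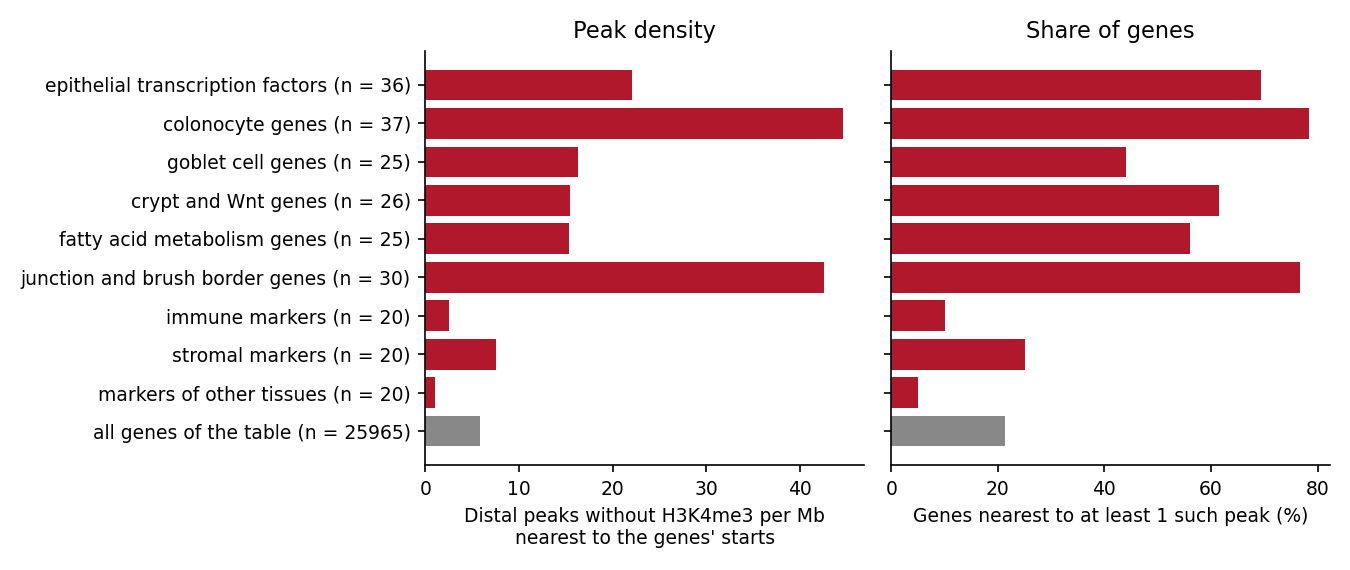
Distal H3K18cr peaks without H3K4me3 per Mb of the DNA nearest to the starts of the genes of each list (left) and share of the genes that were nearest to at least 1 such peak (right). Grey bars are all genes of the RNA-seq table, at 5.85 per Mb and 21.4%. The 6 epithelial lists lay between 15.4 and 44.6 per Mb, and the markers of other tissues at 1.05, while autosomal DNA nearest to any gene of at least 100 CPM had 20.3.

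Lists of genes of the colon epithelium had more of these peaks for their share of the genome than lists of other cell types. Each list is given by its density, the peaks per Mb of DNA nearest to its genes and at least 5 kb from all gene starts, where all genes of the table had 5.85. Colonocyte genes had 44.6 per Mb, with a peak at 29 of 37 genes, and junction and brush border genes 42.6, with a peak at 23 of 30. Epithelial transcription factors had 22.0 (25 of 36 genes), goblet cell genes 16.4 (11 of 25), crypt and Wnt genes 15.4 (16 of 26) and fatty acid metabolism genes 15.4 (14 of 25). These densities are to be read beside the expression of the genes, since autosomal DNA nearest to genes of at least 100 CPM had 20.3 per Mb and that nearest to genes under 0.1 CPM 2.80. The last 4 of the 6 lists lay near or below the former value. Single genes weighed in these values. Of the 221 peaks of the transcription factors, 42 were nearest to Klf6, 30 to Klf3 and 26 to Klf5. Hnf4g had 4 over 3640 kb of that list's 10.0 Mb. Atoh1 had 2 of the 33 goblet cell peaks over 883 kb of 2.02 Mb. Tcf7l2, with 22, counted in both the transcription factor and the crypt lists. Densities without these genes were not computed. Immune markers had 2.51 per Mb (2 of 20 genes), markers of other tissues 1.05 (1 of 20) and stromal markers 7.53 (5 of 20), where 20 of their 26 peaks were nearest to the endothelial genes Vwf, Pecam1 and Cdh5 and 5 to Kit. Without Kit the stromal markers had 6.88 per Mb. The shares of peaks called higher than input were 79.1% to 88.0% in the 6 epithelial lists, near the 85.6% over all the peaks. The lists are short and were not tested against other genes.

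Among colonocyte genes, Slc26a3, the chloride and bicarbonate exchanger of the surface epithelium, had 11 peaks nearest to it, the adhesion molecule Epcam 9 and the sodium and proton exchanger Slc9a2 8. The strongest at Slc26a3, chr12:31429201-31431300, lay in its intron, 38.3 kb from the start, and held 129 and 191 scaled reads in ChIP and 42 and 73.3 in input (limma adjusted p = 0.010). The one 7.63 kb upstream of Epcam, chr17:87624001-87628350, held 304 and 532 against 101 and 186 (adjusted p = 0.014). The ChIP libraries lay above the inputs at both, and the RNA of Epcam was 2038, 1793 and 1769 CPM.

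Among junction and brush border genes, Eps8, which caps and bundles actin in microvilli, had 10 peaks, Ezr, which links the membrane to actin, 7 and the desmosomal cadherin Dsg2 7. The strongest at Eps8, chr6:137567701-137572200, with its midpoint in an exon and overlapping an annotated start of a protein-coding transcript, held 308 and 472 scaled reads against 110 and 137 (adjusted p = 0.011), and the one upstream of Ezr, chr17:6815251-6818550, held 213 and 306 against 77 and 113 (adjusted p = 0.015). Among goblet cell genes, Gcnt3, a glycosyltransferase of mucin glycans, had 8, Bcas1 6 and Agr2, a protein disulfide isomerase needed for mucin folding, 5. The strongest upstream of Agr2, chr12:35981101-35983950, held 165 and 240 against 77 and 83.9 (adjusted p = 0.021).

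Among crypt and Wnt genes, Tcf7l2, the transcription factor that binds β-catenin, had 22 peaks, Ctnnb1, β-catenin itself, 12 and Lrig1, a membrane protein of stem cells, 9. The strongest at Ctnnb1, chr9:120899251-120902400, 26.8 kb upstream, held 248 and 379 scaled reads against 78 and 91.6, a log2 ratio of 1.85 (adjusted p = 0.0050). The one at Lrig1 held 108 and 212 against 68 and 82.4 and did not pass the test (adjusted p = 0.053). Among fatty acid metabolism genes, Ppargc1a, a coactivator of mitochondrial genes, had 12 over 1056 kb of DNA. Slc16a1, a transporter of lactate and butyrate, had 9 over 125 kb. The strongest at Slc16a1, chr3:104662951-104664900, which overlapped an annotated start of a transcript of another kind, held 113 and 246 against 56 and 56.5 (adjusted p = 0.0086), and the one at Ppargc1a did not pass the test (adjusted p = 0.055).

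Further genes of interest had few or none by count. Cdx2, the factor that sets intestinal identity, had 1, chr5:147297751-147298200, 450 bp wide and 0.901 kb from an H3K4me3 peak, with 33.4 and 42.2 scaled reads in ChIP and 14 and 13.7 in input (adjusted p = 0.017). Krt20, a keratin of differentiated cells, had 3. Hnf4a was nearest to 0 but held 3 peaks in its body. The mucin gene Muc2, the stem cell receptor Lgr5 and the deacetylases Hdac1, Hdac2 and Hdac3 were nearest to 0, and Muc2 was among the most expressed genes at 6746, 12351 and 9745 CPM. The DNA nearest to the starts of these genes and at least 5 kb from any start differed in size. It spanned 15.5 kb for Cdx2, 25.4 kb for Krt20, 34.9 kb for Muc2 and 114 kb for Lgr5. For Hnf4a it was 14.7 kb, for Hdac1 20.03 kb, for Hdac2 306 kb and for Hdac3 4.76 kb. A low count over little DNA is not a low density.

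The label of the tissue was compared with RNA markers. The 10 epithelial markers summed to 16977, 21399 and 18390 CPM in the 3 mice, 20 immune markers to 72.2 to 104 CPM, 20 stromal markers to 312 to 390 CPM and 20 markers of liver, heart, neurons, kidney and lung to 46.7 to 51.1 CPM. Kit, which interstitial cells and some secretory cells of the colon crypt express, gave 206, 308 and 275 CPM of the stromal sums. Ttr, a liver marker, gave 32.2, 30.4 and 29.3 CPM of the sums for other tissues. Of the markers of other tissues, 6 were at 0 in all 3 mice, among them Umod of kidney and Sftpc of lung, and of the stromal markers Pdgfra was at 0. Some peaks lay at genes of other cells nevertheless. The endothelial genes Vwf, Pecam1 and Cdh5 were nearest to 8, 6 and 6 peaks, over 87.8, 63.6 and 642 kb of DNA, which makes 91.1, 94.3 and 9.34 per Mb. Their RNA was 6.91 to 10.5 CPM for Vwf, 2.06 to 2.99 CPM for Pecam1 and 0.309 to 0.654 CPM for Cdh5. The endothelial gene Kdr, at 0.612 to 0.928 CPM, was nearest to 0 peaks over 273 kb. The strongest at Pecam1, chr11:106711651-106714200 in its intron, 746 bp from an annotated start of a protein-coding transcript, held 184 and 271 scaled reads in ChIP against 56 and 80.9 in input (adjusted p = 0.0062), and the strongest at Cdh5, chr8:104059201-104063400, held 281 and 452 against 113 and 139 (adjusted p = 0.015). Ms4a1 of B cells and Lck of T cells had 1 each, and Ttr 3, with the RNA level given above. The RNA and the ChIP come from different libraries, and the cell types in the chromatin were not measured, so the part of other cells in these peaks was not tested.

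In sequence, these peaks did not look like gene starts. Their median GC content was 46.5%, against 54.0% in both other kinds of peak and 41.7% over the chromosomes. The ratio of observed to expected CpG was 0.195, against 0.410 at distal peaks with H3K4me3 and 0.579 near gene starts. Of the 300 bp centre windows, 0.486% had a CpG ratio of at least 0.6 and a GC content of at least 50%, the usual mark of a CpG island, against 32.6% and 50.1%. Soft-masked repeats made up a median of 17.2% of a peak and 36.4% of the chromosomes. The authors kept reads by mapping quality, which can lower the reads in repeats, and the part of this was not tested. A window that was over 50% repeat was found in 9.0% of the peaks and in 20.8% of 24691 windows placed 5 kb to either side of them and outside all H3K18cr peaks.

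**Figure D5:**
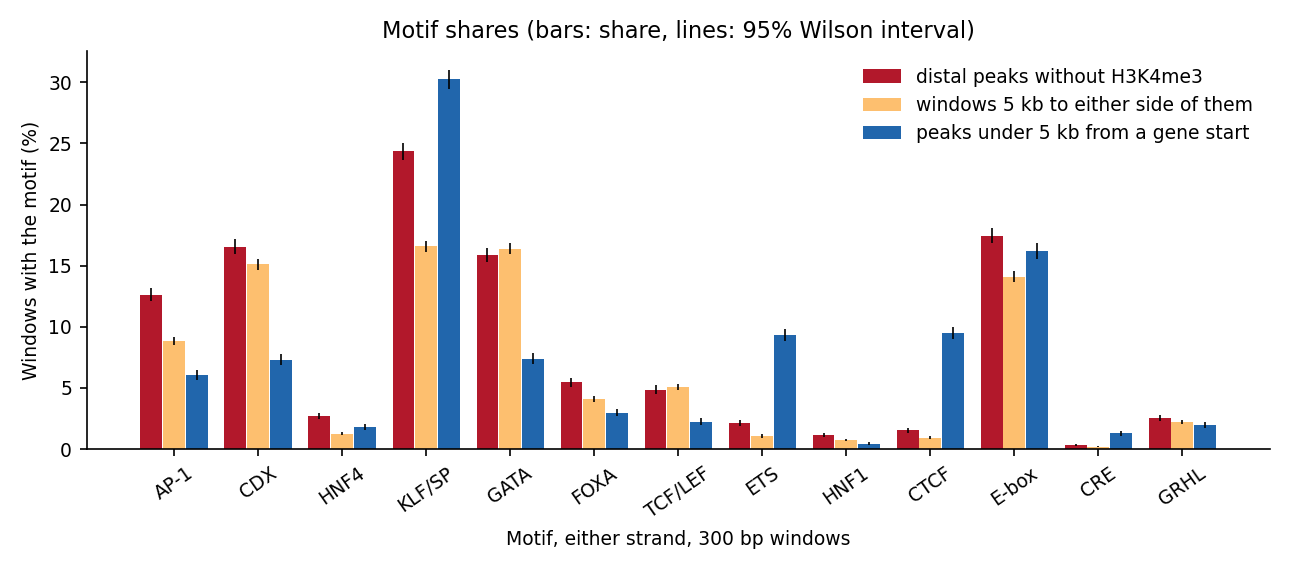
Share of 300 bp windows that hold each of 13 motifs on either strand (bars, with 95% Wilson intervals for counting error), at the centres of distal H3K18cr peaks without H3K4me3, 5 kb to either side of them and at the centres of peaks under 5 kb from a gene start. AP-1 was in 12.6%, 8.84% and 6.05% of the windows and the CTCF core in 1.53%, 0.940% and 9.46%.

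Motifs of several factor families were more frequent at the peak centres than 5 kb away. The AP-1 motif, bound by Fos and Jun dimers, was in 12.6% of the centre windows (1844 of 14615, 95% Wilson interval 12.1% to 13.2%) and in 8.84% of the windows at 5 kb (8.49% to 9.20%). It was in 9.39% of the windows of all H3K18cr peaks and in 7.73% at distal peaks with H3K4me3. The HNF4 motif was in 2.69% and 1.25%, the KLF/SP motif in 24.4% and 16.6%, FOXA in 5.47% and 4.06%, the E-box in 17.5% and 14.1%, and ETS in 2.13% and 1.06%. Unlike AP-1, the KLF/SP motif was less frequent at these peaks than over all H3K18cr peaks (27.6%), near gene starts (30.2%) and at distal peaks with H3K4me3 (34.1%). The E-box share was 17.2% over all H3K18cr peaks and that of HNF4 2.25%, FOXA 4.21% and ETS 5.55%. The motifs for CDX were in 16.5% and 15.1%, those for GATA in 15.8% and 16.4%, and those for TCF/LEF in 4.86% and 5.07%. At peaks near gene starts the order differed, with CTCF core letters in 9.46% against 1.53% at the distal peaks, ETS in 9.32%, AP-1 in 6.05% and CDX in 7.30%. The centre windows hold more G and C than those at 5 kb, a median of 47.7% against 44.7%, and those near gene starts 59.0%, so motifs rich in G and C and those rich in A and T are not on the same footing. The part of base composition was not tested.

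Some of the motif shares differed between narrow and wide peaks. In the narrowest class, 300 to 900 bp, the AP-1 motif was in 9.99% of the centre windows, HNF4 in 1.87% and CDX in 13.6%. In the widest class, 2100 to 4950 bp, they were in 14.4%, 3.46% and 17.7%, and CDX was highest in the class of 1500 to 1950 bp, at 19.03%. The E-box was in 17.4% of the narrowest and 17.1% of the widest and TCF/LEF in 4.68% and 4.88%. KLF/SP was in 21.8%, 24.7%, 27.9% and 23.6% from the narrowest class to the widest. The GC content of the peaks was 47.1% and 46.4% in these classes. A match says only that these letters are in the window, and binding of the factors was not measured.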

How the data were processed

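Colon epithelium was profiled by H3K18cr ChIP-seq (2 ChIP and 2 input libraries), H3K4me3 ChIP-seq (3 and 1) and RNA-seq (3). The RNA-seq table holds raw read counts per gene as the authors deposited them. In the deposited peak tables the values are signal: reads in each peak after the authors brought all libraries to the size of the largest with 1 factor per library. Per the labels, the processing used Trim Galore 0.4.2, TopHat2 2.0.12, Bowtie2 2.2.5 and GRCm38, while the methods name HiSat2 for RNA. Duplicate reads were removed, reads were filtered on mapping quality, and peaks were called with MACS in SEQMONK. There is 1 list of peaks per mark, and whether it was called on pooled or single libraries is not given in the sources used here. The factors, found from the smallest step between values, were 1.59 and 1.62 for the H3K18cr ChIP libraries and 1 and 1.53 for the inputs, and dividing by them gave whole reads for 100% of values. The H3K18cr peaks held 2190272 and 3451663 ChIP reads and 1437984 and 1187019 input reads, and the RNA libraries 8166406 to 10707901 counts. Intervals cover counting error only.

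Scaled reads were tested on log2(value + 1) over all 30338 peaks with limma 3.58.1 (trend) in R 4.3.3, with Benjamini-Hochberg adjustment, and edgeR 4.0.16 was run on the recovered reads as an alternative. On simulated reads for 30338 peaks, limma recovered 78 of 100 peaks changed 2-fold and 100 of 100 changed 4-fold, with 9 false calls. The simulation had a small fixed spread, no difference at the other peaks and no offset between libraries of a group. The data differ in these points, so the figures do not carry over to the peaks described here. Peak positions were set against the gene starts of the RNA-seq table, GENCODE M21 transcripts and the RefSeq GRCm38 genome, with Python 3.11.15, numpy 2.4.6, pandas 2.3.3, scipy 1.17.1 and matplotlib 3.10.9. A distance runs from the nearer edge of the peak. CPM relates the counts of a gene to the sum over all genes of the library.

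The rule of the peaks, the gene lists and the motifs were chosen with earlier results of these data known. Named were the 10 peaks with the largest mean log2 ratio (called, at least 50 scaled reads in each ChIP library), the 5 with the most ChIP reads per kb, the 3 with the lowest ratio, the 5 genes nearest to the most peaks, the 3 such genes of each list (1 of them is not reported here), 9 genes named singly, and the peaks at the limits of the rule. Klf4, Hnf4g, Atoh1, Kit, Kdr, Foxp1, Prkce, Fgfr2, Gm20388, Umod, Sftpc and the groups of neighbouring peaks were named after their values were seen. Alternatives were other distances, pseudocounts, filters, scalings, window lengths, gene assignments, a replicate block and leaving out each library. Data of the human HCT116 line were not used here.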

Additional observations from a re-analysis of the deposited data

How the results depend on the processing

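The number of distal peaks without H3K4me3 stayed within 1.5 times of 14615 under all 5 other rules, from 10702 to 16238. The count higher than input was 12510 and changed little with pseudocounts of 0.5 and 5 (12517 and 12420), with a minimum mean of 20 scaled reads (12380) and with edgeR (13091), but fell to 93 with TMM over the peaks, and ran from 3 to 14359 when 1 library was left out. Leaving out a library leaves 1 sample in a group, which is assumed to vary like the other. The labels do not say that the numbers pair a ChIP with an input library, and deviations of same-numbered libraries correlated at 0.04 across all peaks. With a replicate block the count was 14601 (99.90%), against 100% of the distal peaks with H3K4me3 and 99.95% of those near gene starts. The median log2 ratio was 1.20, and 0.92 to 1.50 without 1 library. It was -0.23, below 0, with a scaling that gives the peaks of each library the same total, where the median of all peaks was -0.12. An H3K4me3 peak lay within 10 kb of 27.2% of the peaks, against 12.9% within 5 kb. The median level of the nearest gene, 0.518 CPM per kb of gene length, was 0.957 with the nearest gene that had a count in every mouse and 0.516 to 0.530 without 1 mouse. In other units it was 30.0 CPM without division by length and 5.59 CPM per kb of exons. At least 1 of the 13 motifs was in 68.7% of the 300 bp windows and in 90.4% of 600 bp windows. The contrast in density between the highest and the lowest expression bin, 12.4-fold, was 13.2-fold over all chromosomes, 10.7-fold with the RNA of mouse 2 and 7.24-fold by nearest gene start. The exon length, the density alternatives and the median over the widest peaks (2100 bp or more), whose median log2 ratio was 1.30, were chosen after seeing the data. The median peak held 46 and 67 ChIP reads, which limits the precision of the height of a single peak.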
